A study of Mus musculus with 38 samples.

Results

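Mouse bone marrow-derived macrophages (BMDM) grown for 16 h in direct contact with GL261 cells, a mouse glioma line, were compared with the same kind of macrophage grown alone, both at 21% oxygen. The comparison rests on 5 of the 38 libraries in the series: 3 from co-culture and 2 from monoculture. All are from wild-type primary cells without drug. Per the labels' protocols, macrophages were seeded onto the glioma cells in equal numbers, and all cells were fixed on ice in 3% glyoxal before polyadenylated RNA was sequenced. How macrophages and glioma cells were separated before extraction is not given in the sources used here. Values from other groups are given beside these: macrophages with and without GL261 under less than 0.1% oxygen (3 and 2 libraries), GL261 alone at 21% oxygen (2), the microglial line BV2 with and without GL261 at 21% oxygen (2 each) and macrophages with the solvent DMSO at 21% oxygen (2). The labels do not say whether libraries of a group came from separate animals or cultures, so p-values measure the spread between these libraries only.

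Of 55487 listed genes, 14806 had enough counts to be tested. A gene was set apart as partner-high where its mean CPM, counts scaled to a common library total, was in GL261 monoculture at least 4-fold that in normoxic macrophage monoculture. This left 12684 tested genes, which are the subject here, and 2122 partner-high genes, which are reported separately at the end. Monoculture macrophages entered both this division and the comparison. Near the dividing line, the called genes (adjusted p below 0.05 in the comparison) with the highest GL261-to-macrophage ratios below 4 were Gadd45a (3.43), mt-Rnr1 (3.18) and Gbp3 (3.13), and the called genes with the lowest ratios above it were Zfas1 (4.89), Ak4 (6.43) and Ndst1 (9.99).

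Macrophages are phagocytes that sense tissue damage, microbes and neighbouring cells, and change their transcription accordingly. Type I interferons bind a surface receptor that activates transcription factors, and these bind interferon-stimulated response elements near antiviral genes such as the Ifit, Oas and Mx families. IRF7, itself made in response to interferon, amplifies interferon production. In gliomas, macrophages and microglia make up a large part of the tissue and can carry inflammatory, antigen-presenting or repair programmes.

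The libraries held 9909367 to 17000536 counts, the lowest being co-culture library 3. Macrophage markers were high in each, on plain CPM. Csf1r was at 3835 and 3377 CPM in monoculture and at 3149, 2955 and 2506 CPM in co-culture. Adgre1 was at 961 and 611 against 587, 553 and 438 CPM, so both genes were lower in every co-culture library. Cd68 ranged from 1037 to 1179 CPM. Of 17 macrophage markers, 11 had positive and 6 negative log2 fold changes. Aif1 was called higher in co-culture and no other was called. Markers of lymphocytes and red cells were below 0.3 CPM in all 5 libraries, and of 9 neutrophil markers only S100a8 passed that level, at 19.2 and 0.908 CPM in co-culture libraries 2 and 3. The stromal markers Col1a1 (44.6 to 137 CPM) and Col1a2 (13.8 to 42.3 CPM) were present in all 5, below both monocultures in co-culture libraries 1 and 2 and above both in library 3. Acta2 was at 56.1 and 40.1 CPM in monoculture and lower in each co-culture library, at 19.1, 21.1 and 36.7 CPM. Dcn was at 9.31 CPM in co-culture library 2 and at most 0.505 CPM elsewhere. Of 5 tested stromal markers that are not partner-high, 0 were called, with 2 positive and 3 negative log2 fold changes. On plain CPM, with GL261 taken from its own table, transcripts of 190 GL261-specific genes stood at a median of 1.34%, 2.16% and 3.71% of their GL261 level in co-culture libraries 1, 2 and 3, and at 0.0486% and 0.0400% in the monocultures.

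Co-culture library 2 stood apart from the other 4. In it, 46 genes that are not partner-high were at 5 CPM or more and at least 4-fold above every other library, against 0 such genes in co-culture library 1 and in both monocultures and 1 gene (Eif2s3y) in co-culture library 3. Saa3, an acute-phase protein, was at 3052 CPM in that library, 9.88 and 20.1 CPM in co-culture libraries 1 and 3, and 2.19 and 2.96 CPM in the monocultures. Il1b, which encodes the cytokine interleukin-1 beta, was at 259 CPM in library 2 and between 0.882 and 3.57 CPM in the rest. Arg1, the arginine-degrading enzyme often used as a marker of alternative activation, was at 188 CPM against 1.32 CPM or less. Mmp9, Cxcl3, Socs3, Lcn2, Nos2, Acod1, Csf3 and Il1rn were among the others. None of the 46 is among the genes called between co-culture and monoculture by edgeR. By DESeq2 5 were called, with no adjusted p for 16, and 31 had an unadjusted p below 0.05 in edgeR. Since the genes were chosen on these libraries, those counts describe them and test nothing. The hypoxic co-culture library that carries the same number was the highest of the 5 hypoxic libraries for 39 of these genes and at least 4-fold above the other 4 for 21, with Saa3 at 2396 CPM there. Of the normoxic DMSO libraries, library 1 was above the 4 remaining normoxic libraries for 43 of the 46 genes and library 2 for 32, with Saa3 at 5805 and 43.2 CPM. These DMSO counts set plain CPM of the DMSO libraries against TMM-scaled CPM of the other 4. Neither the hypoxic nor the DMSO counts were made over all tested genes, so they describe the 46 genes only.

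**Figure D1:**
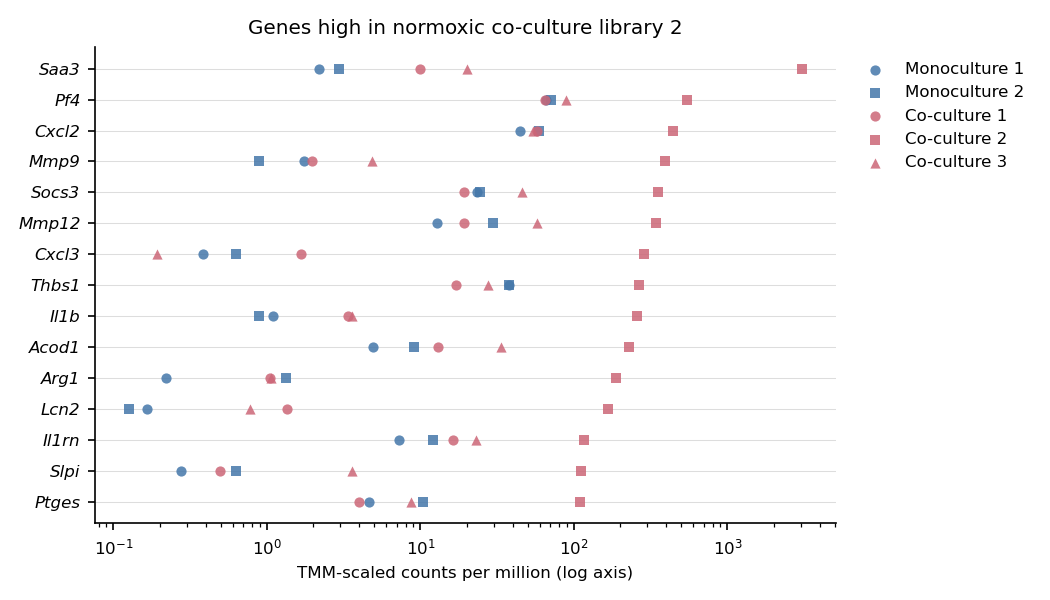
TMM-scaled CPM (log axis) in each of the 5 normoxic libraries for the 15 genes with the highest level in co-culture library 2 among those at least 4-fold above the other libraries there and detected in all 5. Each point is 1 library. For Saa3 the point of co-culture library 2 lies at 3052 CPM and the other 4 lie between 2.19 and 20.1 CPM.

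Co-culture library 3 differed in another way. The Y-linked genes Ddx3y, Eif2s3y, Uty and Kdm5d were at 4.04, 9.08, 2.72 and 2.83 plain CPM in it. All 4 genes were at 0 in the other 4 libraries compared and in both normoxic GL261 monoculture libraries. Xist, made from the inactive X chromosome, was at 272 to 601 CPM in all 5 libraries compared. Hypoxic co-culture library 3 and normoxic DMSO library 2 also held these Y-linked transcripts. Both monoculture groups of the co-culture table hold 2 libraries, numbered 1 and 2. Within that table, libraries with these transcripts are found on the co-culture side only. Counts are therefore given with and without libraries 2 and 3.

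In co-culture 52 genes were higher and 10 lower among the 12684 (edgeR quasi-likelihood test, Benjamini-Hochberg adjusted p below 0.05 over all 14806 genes, which is what "called" means throughout). That is 0.41% higher and 0.0788% lower. Rises had a median of 2.90-fold and ran from 1.52-fold (Prkcb) to 8.24-fold (Bach2os), apart from Zfp750, which stood at 3 counts in each monoculture library and whose fitted 12.7-fold is imprecise. Falls ran from 1.49-fold to 5.32-fold. In each of the 62 genes all 3 co-culture libraries lay on one side of both monocultures, as they did for 31.8% of the genes tested. In 26 of the 52 rises, the lowest co-culture library was at least 2-fold above the higher monoculture. The count depended on which libraries were used: 16 genes were called without co-culture library 2, 44 without library 3, 64 without library 1, and 1 without either monoculture library (Nptx1 without the first, Isg15 without the second). Blocking on replicate number gave 149 called genes, among them 61 of the 62. In bulk RNA, fewer cells of a type and less RNA per cell cannot be told apart. The count also depended on the partner-high genes in the adjustment, since 9 of the 62 were called when these were removed before adjusting. Those 9 were Bach2os, Ms4a4c, Isg15, Itgax, Arl5c, Runx3, Selenow, Bst2 and Nptx1, and all 9 were also called without co-culture library 2 and without library 3. The sign of all 62 was the same under all alternatives in which the gene was tested.

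Interferon-stimulated genes made up 10 of the 52 rises. All 36 genes of the interferon-stimulated list had positive log2 fold changes, from 0.23 (Irf9) to 2.36 (Ifit3b), with a median of 1.15 against -0.02 for the 12684 genes. Of these, 10 were called higher and 0 lower (edgeR; 33 higher and 0 lower at an unadjusted p below 0.05), against 0.41% called higher over the 12684 genes. In 32 of the 36 (88.9%) the libraries did not overlap, against 31.8%. Isg15, a ubiquitin-like protein that is attached to other proteins, was at 19.9 and 28.2 CPM in monoculture and at 97.1, 109 and 83.0 CPM in co-culture, a log2 fold change of 2.01 (SE 0.20, adjusted p = 0.00234, edgeR). Its 3 co-culture libraries lay close together and far above both monocultures. Irf7 went from 56.9 and 81.3 CPM to 296, 510 and 209 CPM (2.29, SE 0.39, adjusted p = 0.0178, edgeR), with library 2 highest. Bst2, a membrane protein that tethers budding virus particles, was at 195 CPM in both monocultures and at 473, 469 and 480 CPM in co-culture (1.28, SE 0.18, adjusted p = 0.00742, edgeR). That gene had almost no spread within either group.

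Ifit1, Ifit3 and Ifit3b, which encode proteins that bind viral RNA, rose together. Ifit3 was at 14.3 and 26.0 CPM in monoculture and at 109, 98.1 and 63.0 CPM in co-culture, and Ifit1 at 8.05 and 15.4 against 36.2, 40.8 and 29.6 CPM. Ifit3 and Ifit3b share 41.1% and 35.7% of their words of 75 bases with each other, so reads could be split between them and each value is uncertain. Zbp1, a sensor of Z-form nucleic acid, rose by 2.22 on the log2 scale (SE 0.47), Cxcl10, a chemokine that attracts activated T cells, by 1.90 (SE 0.32), Usp18, which removes Isg15 from proteins, by 1.34 (SE 0.29), and Ifi35 by 0.81 (SE 0.18). Ifi35 was not called with the replicate number as a block (adjusted p = 0.0538, edgeR). Closest below the threshold were Oas1g (1.17, adjusted p = 0.0506), Xaf1 (1.12, adjusted p = 0.0540), Mx1 (2.32, adjusted p = 0.0628) and Oas1a (0.81, adjusted p = 0.0701, all edgeR). Oas1a and Oas1g share 47.6% and 36.9% of their 75-base words with each other. Stat2, a transcription factor of the interferon pathway, had a log2 fold change of 1.06 and was not called (adjusted p = 0.132, edgeR). The median of the list was 1.17, 1.28 and 0.73 in co-culture libraries 1, 2 and 3 relative to the monoculture mean, so each library showed it. Called members numbered 6 without co-culture library 1, 4 without library 2, 8 without library 3, 0 without the first monoculture library and 1 without the second. The number was 2 with partner-high genes removed before adjustment, 3 with GL261 counts subtracted by share, 5 at a mean CPM of at least 5, 15 with only the 2 groups, 18 with the replicate number as a block, 26 with DESeq2 and 30 with no filter beyond 1 count.

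Further rises lay outside that list. Ifi209, Gbp3, Gbp8, Igtp, Gm12250, Phf11d and Lgals9 rose by 1.86, 1.34, 1.87, 0.87, 1.11, 1.15 and 1.02 on the log2 scale. Gbp3, Gbp8 and Igtp belong to families of interferon-induced GTPases that act on vacuoles holding pathogens. Ifi209 shares 23.1% of its 75-base words with Ifi214, Gbp8 overlaps Gbp4 and Gbp9 and Igtp overlaps Irgm2 on the same strand, so their values are uncertain.

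Sequences just upstream are shown for some called rises, all with a spelling of the interferon-stimulated response element in the stretch printed. Other called rises, among them Cxcl10, Ifit3b and Gdf15, hold no match in that stretch. The motif, 2 copies of GAAA separated by any 2 bases, was searched on both strands of windows from 250 bases before to 50 bases after each RefSeq start site (build GRCm38.p6). It was found in 3.44% of the 32851 windows and in 4.05% of the 8946 tested genes that are not partner-high and have a window. Among the 52 rises, 42 had a window and 16 of those held the motif (38.1%). It was held by 16 of 27 genes with a window in the interferon-stimulated list (59.3%), and by 10 of 34 rises outside that list (29.4%), among them Fcgr4, Gbp3, Igtp, Lgals9, Aif1 and the 3 Pilr genes. Of 5 falls with a window, Syt6 held it. The 150 bases before the start site are printed 5′ to 3′ on the gene's strand, with every match in capitals. Overlapping matches run together.
Isg15, minus strand, chr4:156200819-156200968: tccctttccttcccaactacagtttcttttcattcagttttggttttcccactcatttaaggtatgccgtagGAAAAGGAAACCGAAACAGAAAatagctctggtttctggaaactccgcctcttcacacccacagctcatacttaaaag
Ifit3, plus strand, chr19:34583379-34583528: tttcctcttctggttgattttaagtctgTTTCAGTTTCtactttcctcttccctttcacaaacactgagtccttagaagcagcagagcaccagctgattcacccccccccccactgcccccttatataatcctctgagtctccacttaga
Ifit1, plus strand, chr19:34640739-34640888: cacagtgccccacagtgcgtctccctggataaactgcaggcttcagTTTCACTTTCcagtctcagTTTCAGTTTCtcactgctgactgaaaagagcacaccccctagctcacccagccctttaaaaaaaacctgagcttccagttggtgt
Gbp3, plus strand, chr3:142559894-142560043: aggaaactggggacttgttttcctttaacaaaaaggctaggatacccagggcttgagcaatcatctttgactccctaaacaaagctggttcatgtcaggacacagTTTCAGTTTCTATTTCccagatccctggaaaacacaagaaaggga
Igtp, plus strand, chr11:58199406-58199555: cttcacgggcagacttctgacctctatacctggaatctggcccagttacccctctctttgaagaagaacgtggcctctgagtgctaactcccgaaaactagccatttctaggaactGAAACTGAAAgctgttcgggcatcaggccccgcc
Fcgr4, plus strand, chr1:171018776-171018925: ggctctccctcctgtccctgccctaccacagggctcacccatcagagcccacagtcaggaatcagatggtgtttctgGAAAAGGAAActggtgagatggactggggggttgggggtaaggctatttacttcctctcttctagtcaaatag
Isg15 held 3 overlapping matches that begin 78 bases before its start site, and Gbp3 and Ifit1 held 2 each. The window of Irf7 held none of these letters, which says only that this spelling is not in these bases.

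Several rises encode surface receptors, grouped here after their values were seen. Pilra, Pilrb1 and Pilrb2 encode paired immunoglobulin-like receptors, of which the first is inhibitory, and lie next to each other on the minus strand (chr5:137821952-137871815). Pilra was at 24.2 and 29.9 CPM in monoculture and at 56.0, 170 and 93.9 CPM in co-culture (log2 fold change 1.98, SE 0.39, adjusted p = 0.0331, edgeR), with library 2 highest. Pilrb1 and Pilrb2 rose by 2.04 (SE 0.42) and 1.72 (SE 0.37), library 2 again being highest. They share 11.2% and 10.2% of their words with other genes, mostly each other. None of the 3 was called without co-culture library 2 (adjusted p = 0.0516, 0.0571 and 0.0682, edgeR) or without library 3 (0.0625, 0.0625 and 0.0553).

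Itgax, which encodes the integrin CD11c, was at 6.84 and 8.63 CPM in monoculture and at 28.5, 32.6 and 28.8 CPM in co-culture (log2 fold change 1.96, SE 0.23, adjusted p = 0.00482, edgeR). Its co-culture libraries differed little from each other. CD11c marks dendritic cells as well as activated macrophages, and the dendritic cell genes Flt3, Xcr1, Cd209a, Clec9a, Ccr7 and Zbtb46 were below 1 CPM in each of the 5 libraries. Fcgr4, an activating Fc receptor, Cd80, a co-stimulatory ligand for T cells, Treml4, Klra2 and Slamf9 rose by 1.37, 1.41, 1.53, 1.64 and 1.02. Ms4a4c and Ms4a6b, membrane proteins of one family with genes 89.3 kb apart on chromosome 19, rose by 3.02 and 0.92. Aif1, the actin-binding protein Iba1 that is used to mark microglia and macrophages, was at 54.1 and 46.4 CPM in monoculture and at 158, 131 and 172 CPM in co-culture (1.61, SE 0.25, adjusted p = 0.0129, edgeR). Its neighbour Lst1 rose by 1.04 (SE 0.18).

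Gdf15, a secreted cytokine of the TGF-beta family produced under cell stress, was at 19.3 and 28.0 CPM in monoculture and at 171, 136 and 92.8 CPM in co-culture (log2 fold change 2.50, SE 0.40, adjusted p = 0.0141, edgeR). Every co-culture library was more than 3-fold above the higher monoculture. It belonged to 3 of the lists. Of 14 tested p53 targets, Gdf15 and Bbc3, a pro-apoptotic BH3-only protein, were called (Bbc3 0.91, SE 0.18), and Phlda3 (1.22) and Trp53inp1 (0.78) were not. Over the 12684 genes, 0.41% were called higher. Of the 14, 6 were higher and 0 lower at an unadjusted p below 0.05 in edgeR, and DESeq2 called 5 higher. Gadd45a, a stress gene induced by DNA damage, rose by 1.32 (SE 0.24). Of 15 tested genes of the integrated stress response that are not partner-high, only Gdf15 was called. In edgeR 6 of the 15 were higher and 0 lower at an unadjusted p below 0.05, and DESeq2 called 2 higher. Ddit3, the transcription factor CHOP, had a log2 fold change of 0.93 (adjusted p = 0.306, edgeR).

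Runx3, a transcription factor with roles in myeloid and T cells, was at 7.06 and 7.56 CPM in monoculture and at 18.4, 18.3 and 19.4 CPM in co-culture (1.35, SE 0.16, adjusted p = 0.00437, edgeR). Slc40a1, the iron exporter ferroportin, rose from 18.6 and 15.1 CPM to 62.1, 42.8 and 41.7 CPM (1.54, SE 0.26). In Runx3 both groups were narrow, and in Slc40a1 co-culture library 1 was highest. Selenow, a small selenoprotein, Maff, a small Maf transcription factor, Nod1, a sensor of bacterial cell wall fragments, Slc15a3, a lysosomal peptide transporter, and Prkcb, a protein kinase C, rose by 1.29, 1.49, 1.18, 1.26 and 0.61. Bach2os lies antisense to Bach2 over 12029 bases, and the strand setting of the counting is not given in the sources used here. It went from 0.657 and 0.756 CPM to 5.93, 4.43 and 7.33 CPM, while Bach2 had a log2 fold change of 0.40 (adjusted p = 0.798, edgeR). Stra6l, Hmcn2, Abcg3, Arl5c and Tmem51 rose by 2.72, 2.67, 2.20, 1.49 and 1.06. The mitochondrial ribosomal RNA mt-Rnr1 rose by 1.33 (SE 0.29), with co-culture library 3 highest at 527 CPM, and this library also had the highest share of mitochondrial counts, 2.44% against 0.877% to 1.28%. Its part in that rise was not tested.

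**Figure D2:**
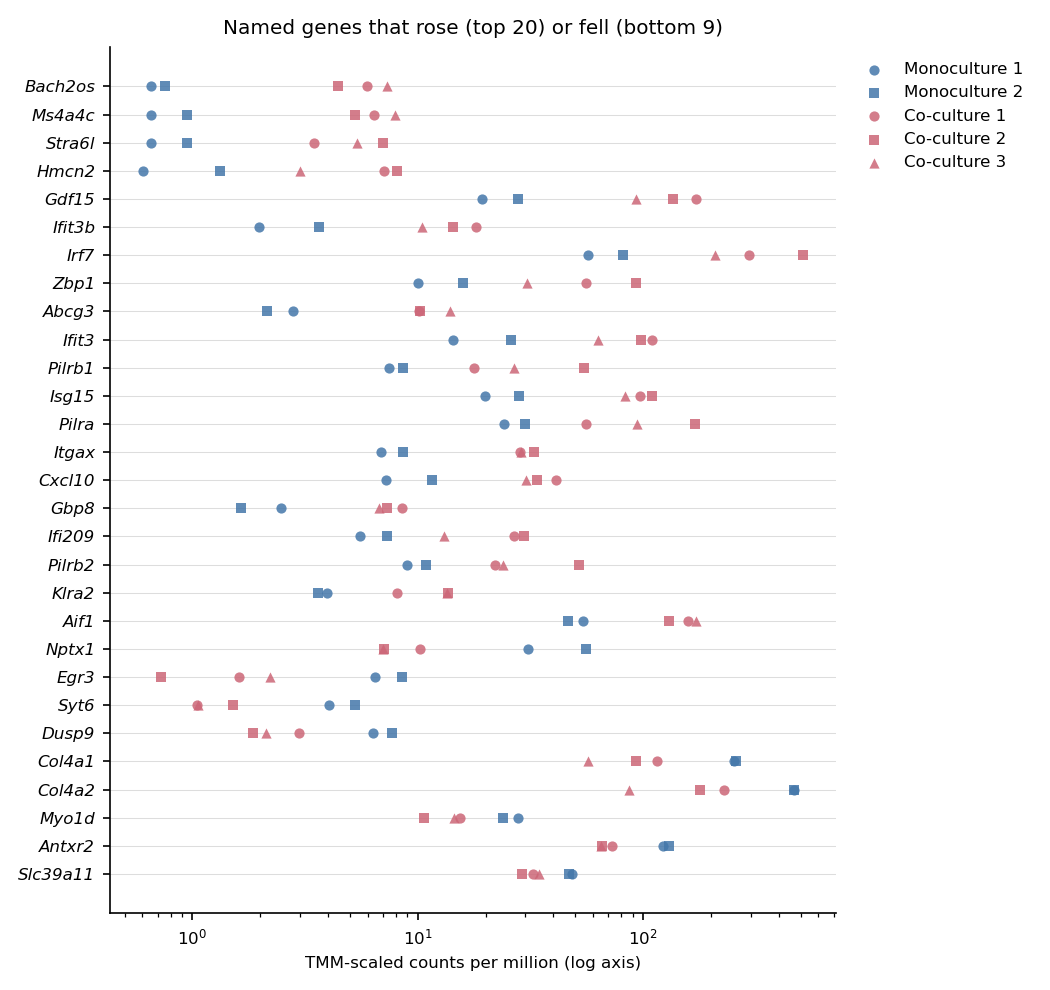
TMM-scaled CPM (log axis) in each of the 5 normoxic libraries for the 20 named genes with the largest rises and 9 of the 10 falls, 1 point per library. Co-culture points lie to the right of both monoculture points in the rises and to the left in the falls. Isg15, for example, lies at 83.0 to 109 CPM in co-culture and at 19.9 and 28.2 CPM in monoculture.

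Among the 10 falls, Col4a1 and Col4a2, the chains of type IV collagen in basement membranes, had the highest counts. Col4a1 was at 253 and 258 CPM in monoculture and at 115, 92.6 and 56.8 CPM in co-culture (log2 fold change -1.53, SE 0.25, adjusted p = 0.0162, edgeR). Col4a2 was at 466 CPM in both and at 229, 178 and 86.6 CPM (-1.50, SE 0.33, adjusted p = 0.0488). These genes lie head to head on chromosome 8 (chr8:11198423-11449287) and their models overlap by 22 bases. GL261 monoculture held 0.800 and 0.692 CPM of them. In both, co-culture library 3 was lowest and library 1 highest, the reverse of the order of GL261-specific transcripts. Neither was called without co-culture library 2 (adjusted p = 0.0503 and 0.118, edgeR).

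Nptx1, a secreted pentraxin, was at 30.8 and 55.8 CPM in monoculture and at 10.2, 7.07 and 7.04 CPM in co-culture (log2 fold change -2.41, SE 0.27, adjusted p = 0.00414, edgeR). It was the only fall called without co-culture library 2. Egr3, an immediate early transcription factor, went from 6.46 and 8.50 CPM to 1.61, 0.727 and 2.22 CPM (-2.34, SE 0.48, adjusted p = 0.0393). Of 22 tested immediate early genes no other was called. Their median was -0.26, with 8 positive and 14 negative values running from -2.34 to 1.98. Fosb and Egr1 had log2 fold changes of -1.34 and -0.84 (adjusted p = 0.268 and 0.315, edgeR). In the list 3 were higher and 4 lower at an unadjusted p below 0.05 in edgeR, and DESeq2 called 1 higher and 2 lower. Dusp9, a phosphatase that acts on MAP kinases, and Syt6, a synaptotagmin, fell by 1.59 and 1.93 on the log2 scale. Myo1d, an unconventional myosin, and Antxr2, an anthrax toxin receptor that binds collagen IV, fell by 0.93 and 0.90. Slc39a11, a zinc transporter, fell by 0.57.

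For the other lists, 0 or 1 call in lists this small says little against a background of 0.41% higher and 0.0788% lower. For MHC class II, which presents peptides to helper T cells, 0 of 10 tested genes were called, 9 had positive values and the median log2 fold change was 0.75 (edgeR; 7 had an unadjusted p below 0.05 and DESeq2 called 2). H2-Ab1, a chain of the class II molecule, was at 21.2 and 19.2 CPM in monoculture and 30.4, 43.7 and 30.7 CPM in co-culture (adjusted p = 0.385). Its levels did not overlap but were close to each other. H2-Eb1, H2-DMa and H2-DMb2, the last 2 of which help to load peptides, had log2 fold changes of 0.83, 0.80 and 0.91 (adjusted p = 0.228, 0.147 and 0.388).

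For MHC class I presentation 0 of 16 were called and 15 were positive (median 0.45, edgeR; 8 had an unadjusted p below 0.05 and DESeq2 called 1). H2-T23, a non-classical class I molecule, was at 188 and 178 CPM in monoculture and at 337, 449 and 220 CPM in co-culture (0.87, adjusted p = 0.131). Psmb10, a subunit of the immunoproteasome, had 0.67 (adjusted p = 0.189). H2-Q6 and H2-Q7 belong to a family of near-identical genes and are uncertain. H2-Q7 was at 6.79 and 7.31 CPM in monoculture and at 14.6, 42.3 and 5.11 CPM in co-culture, with library 3 below both monocultures, as it was for H2-Q6.

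The inflammatory list (1 of 14 called, Cd80) had a median of 1.08 and the chemokine list (1 of 19, Cxcl10) one of 1.54. These values came largely from co-culture library 2: relative to the monoculture mean, the inflammatory medians were 0.45, 1.58 and 0.41 in libraries 1, 2 and 3, and the chemokine medians 0.26, 2.01 and 0.54. Without library 2 the fitted medians were 0.52 and 0.91. Il1a, which encodes the cytokine interleukin-1 alpha, was at 54.7 CPM in that library and at 0.193 CPM or less in the others. Cxcl1, a neutrophil attractant, was at 35.4 CPM there and between 1.53 and 3.66 CPM in the others. Ccl7, a monocyte attractant, was at 5.20 and 4.66 CPM in monoculture and at 5.37, 63.8 and 25.7 CPM in co-culture (adjusted p = 0.147, edgeR). For Ccl7, library 1 thus lay close to the monoculture level. Cxcl5 was at 1.52 CPM in library 2 and at 0 in the others.

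Of the phagocytic and scavenger receptors 1 of 16 was called, Fcgr4, and the median was 0.46 (0.28 without co-culture library 2). Fcgr1, the high-affinity Fc receptor, was at 88.0 and 74.6 CPM in monoculture and at 159, 272 and 139 CPM in co-culture, without overlap (1.23, adjusted p = 0.0568, edgeR). Marco, a scavenger receptor for bacteria and particles, was at 3.12 and 4.09 CPM in monoculture and at 7.41, 252 and 84.6 CPM in co-culture (4.99, adjusted p = 0.146). Of the 12 alternative activation genes 0 were called (median 0.42; 2 had an unadjusted p below 0.05 and DESeq2 called 1). Cd274, which encodes the checkpoint ligand PD-L1, was at 35.0 CPM in co-culture library 2 and at 3.28 to 8.34 CPM in the others (adjusted p = 0.298). Complement had 0 of 8 called (median 0.42; 1 lower at an unadjusted p below 0.05 and 0 by DESeq2). C3, the central complement component, had 0.64 (adjusted p = 0.581).

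In the LXR list, whose genes act in cholesterol export, 0 of 7 were called although 6 were positive (median 0.86, and 0.47 without co-culture library 2; 4 had an unadjusted p below 0.05 and DESeq2 called 3). Apoe, a lipid carrier, was at 2431 and 1725 CPM in monoculture and at 4659, 4626 and 4370 CPM in co-culture, without overlap (1.13, SE 0.28, adjusted p = 0.0789, edgeR). Nr1h3, which encodes LXR alpha, and the exporter Abcg1 had 1.26 and 1.14 (adjusted p = 0.119 and 0.127). Of 18 lipid-associated macrophage genes Itgax was called and the median was 0.13, with the fatty acid binding protein Fabp5 at 0.70 (adjusted p = 0.377). Cholesterol synthesis and uptake had 0 of 19 called (median 0.01, edgeR; 0 at an unadjusted p below 0.05 and 0 by DESeq2), and its regulator Srebf2 was at -0.31 (adjusted p = 0.449).

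In the glycolysis and hypoxia list 1 of 24 was called, the mitophagy receptor Bnip3 (0.86, SE 0.18), with a median of 0.30. Bnip3 shares 11.4% of its words with other transcripts. Vegfa, the angiogenic growth factor, was at 36.9 and 28.0 CPM in monoculture and at 71.5, 104 and 48.8 CPM in co-culture (1.20, adjusted p = 0.0514, edgeR). Pfkfb3 and Egln3 were highest in co-culture library 2, at 89.1 and 21.0 CPM. NRF2 antioxidant genes had 0 of 13 called (median -0.16, edgeR; 2 higher and 1 lower at an unadjusted p below 0.05, and 0 by DESeq2). Hmox1, which degrades heme, and Nqo1, a quinone reductase, had 0.92 and -1.35 (adjusted p = 0.277 and 0.311), values of opposite sign that did not pass the test. Trib3, a partner-high pseudokinase gene of the integrated stress response, had 1.16 (adjusted p = 0.0746). The medians of the 15 stress response and 14 p53 genes were 0.11 and 0.47.

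Of 25 cell cycle genes 0 were called (median -0.08, edgeR; 0 at an unadjusted p below 0.05 and 0 by DESeq2). Mki67, a marker of cycling cells, was at 1005 and 1000 CPM in monoculture and 968, 694 and 649 CPM in co-culture (-0.38, adjusted p = 0.619), and the replication helicase gene Mcm6 had -0.34 (adjusted p = 0.548). Library 2 had the lowest list median, -0.53, against 0.13 and -0.03 in libraries 1 and 3. Of 14 growth factors Gdf15 was called (median 0.21).

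**Figure D3:**
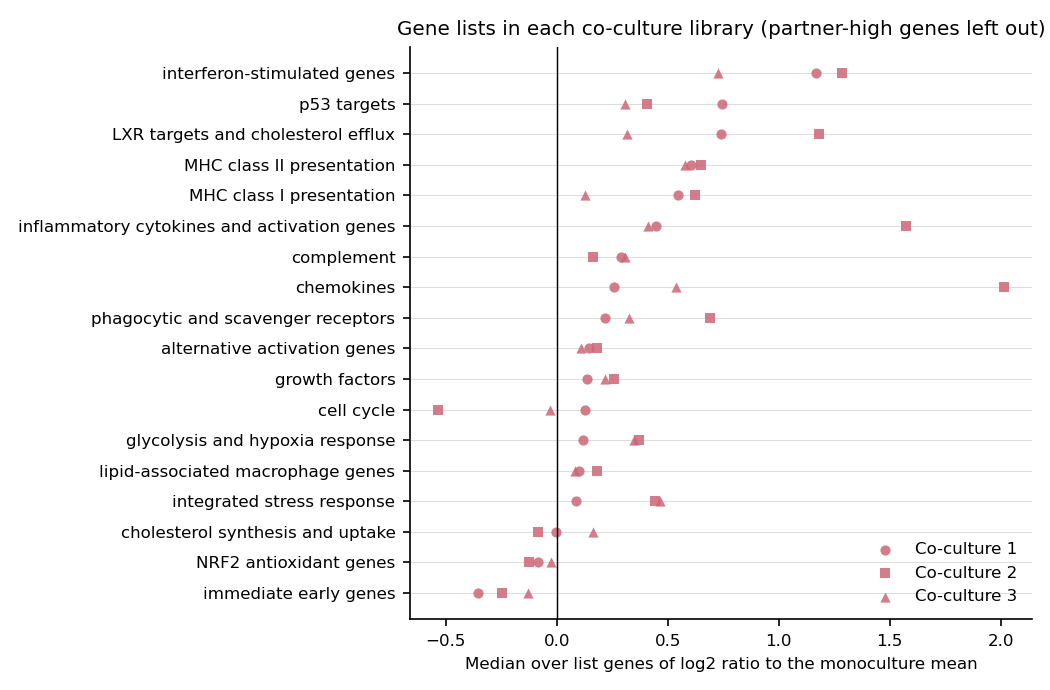
For each of 18 gene lists, the median over its genes of the log2 ratio of 1 co-culture library to the monoculture mean, with 1 point per co-culture library and partner-high genes left out. The interferon-stimulated list lies at 1.17, 1.28 and 0.73, while for chemokines library 2 lies at 2.01 and libraries 1 and 3 at 0.26 and 0.54.

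The same contrast under less than 0.1% oxygen used other libraries, although the numbering and the Y-linked transcripts leave it unknown whether these came from separate macrophage preparations. There, 0.97% of genes that are not partner-high were called higher and 3.52% lower. Of the 52 rises, 49 were positive in hypoxia and 21 called higher. All 10 falls were negative and 7 were called lower. Isg15 rose by 2.35 (adjusted p = 0.000916), Cxcl10 by 3.09, Bst2 by 1.08 and Itgax by 1.18 in hypoxia, and Nptx1, Col4a1 and Col4a2 fell by 2.39, 1.88 and 2.00. Ms4a4c was called higher in hypoxia from levels of 0 and 0.0691 CPM in monoculture, under the limit of 3 counts, to 0.502, 0.447 and 0.847 CPM, so its fold is not given. Runx3, Slamf9 and Bnip3 had values of -0.02, -0.43 and -0.28 in hypoxia against 1.35, 1.02 and 0.86 in normoxia, and Gdf15 0.84 against 2.50. A test of the difference between oxygen levels called 0 genes over all 14806 (edgeR, smallest adjusted p = 0.364, 636 genes at an unadjusted p below 0.05), and DESeq2 called 9. No difference named here was called by edgeR.

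**Figure D4:**
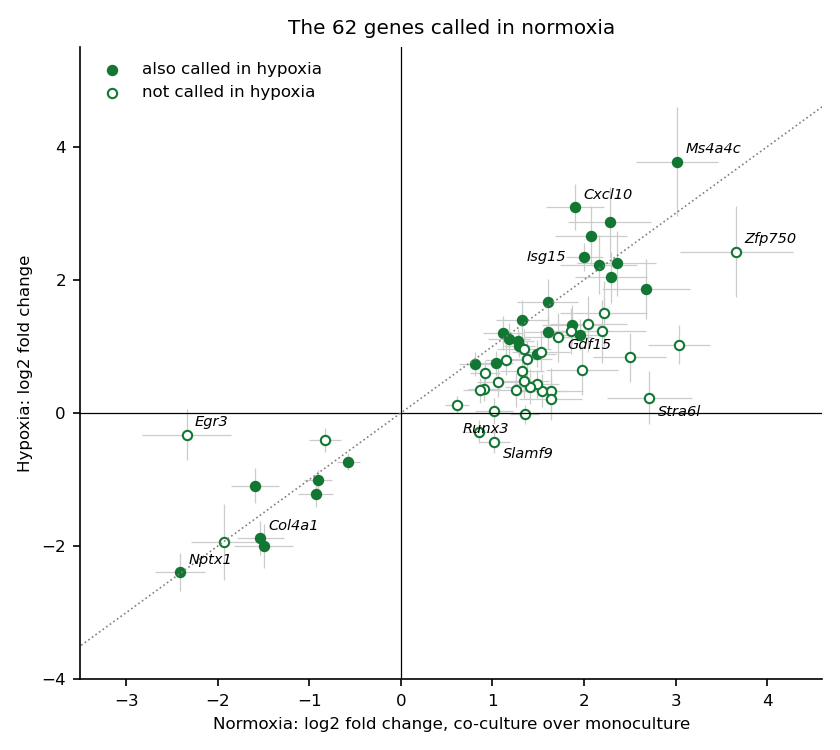
Log2 fold change of co-culture over monoculture in normoxia (horizontal) and hypoxia (vertical) for the 62 called genes, with 1 standard error as grey bars and the line of equal change dotted. Filled points mark the 28 genes also called in hypoxia, and 59 of the 62 have the same sign in both.

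In BV2 cells, a microglial line seeded on GL261 at another ratio, the same edgeR test was run at 21% oxygen. It called 5.77% of tested genes higher and 9.14% lower. These shares include partner-high genes, unlike the macrophage rises and falls set beside them. Of the 52 macrophage rises 43 were tested there, of which 15 were called higher and 0 lower. Isg15 (1.20), Cxcl10 (1.45), Aif1 (1.83), Pilra (1.23) and Hmcn2 (1.86) were among the 15. Arl5c was also called, but its BV2 monoculture levels of 0.0424 and 0 CPM lie under the limit of 3 counts and its co-culture levels were 0.295 and 0.438 CPM. Irf7 (0.63), Itgax (0.71) and Bst2 (0.22) were not called. Of 7 falls tested, 2 were called lower, Antxr2 among them, and Egr3 was called higher. The difference between BV2 and macrophages was not tested.

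Macrophages cultured with DMSO and no glioma cells, from another table of raw counts, give a second view of macrophages without GL261. For 25 of the 52 rises the higher of the 2 normoxic DMSO libraries reached the lowest co-culture library, on plain CPM throughout. This count and those below were not made over all tested genes, so they describe the called genes only. Irf7 was at 490 and 47.1 CPM in them, and Isg15 at 109 and 24.6 CPM, so DMSO library 1 lay at co-culture levels for these genes and library 2 near or below monoculture. Pilra was at 229 and 62.4 CPM, both above the lowest co-culture library. Gdf15 was at 17.2 and 25.8 CPM in DMSO, as in monoculture, and Aif1 at 83.9 and 29.4 CPM. For 10 of the rises both DMSO libraries were at or below the higher monoculture. Of the falls, 5 had a DMSO library at or below the highest co-culture library, among them Egr3 at 1.46 and 1.32 CPM, while Col4a1 was at 705 and 1074 CPM.

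Partner-high genes are reported here apart. Of the 2122 tested, 181 were called higher (8.53%) and 0 lower (edgeR; 703 higher and 13 lower at an unadjusted p below 0.05, and 396 and 2 by DESeq2). The count was 2 without the first monoculture library, 3 without the second, 68 without co-culture library 2 and 89 without library 3. The rise of each was set against its GL261 level: the median was 2.95% of it and the quartiles were 2.23% and 4.21%. In 148 of the 181 the co-culture libraries were ordered 1, 2, 3 from low to high, the order of the GL261-specific transcripts, against 3 of the 52 rises described above. For those 52, the GL261 level times the transcript share equals a median of 0.126% of the rise and at most 5.77%. The same GL261 and monoculture levels divided the genes, so low values for the 52 were built in. The GL261-specific genes themselves meet the partner-high rule. The library orders and these percentages therefore describe the 2 sets and test nothing. In bulk RNA, transcripts carried over from GL261 cells and a change inside macrophages cannot be told apart for a partner-high gene.

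Of 13 tested glial and glioma markers, 11 were partner-high and 7 of these were called: Sox10, Sox2, Olig2, Cdh2, S100b, Olig1 and Pdgfra. Sox10, a transcription factor of the oligodendrocyte and neural crest lineages, was at 0 in both monocultures and at 22.6, 35.2 and 65.4 CPM in co-culture, against 1251 CPM in GL261. The called partner-high genes with the highest co-culture levels were Sparc (81.5, 107 and 251 CPM), AC158975.2 (130.3 ± 19.5 CPM, SD, n = 3), Col2a1 (51.4, 106 and 190 CPM), Scd2 (62.8, 49.0 and 73.7 CPM) and Ddit4. Sparc and Col2a1, both of the extracellular matrix, followed the library order of the GL261-specific transcripts, while the other 3 did not. A rise above 10% of the GL261 level occurred in 8 of the 181: Stmn4, Apol9b, Ak4, Col15a1, AC158975.2, Zfas1, Ndst1 and Phlda2, named after their values were seen. Apol9b was at 0.712 and 0.504 CPM in monoculture and at 4.57, 5.48 and 2.12 CPM in co-culture, a rise of 34.8% of its GL261 level. Ddit4, a stress-induced inhibitor of mTOR, was at 7.39 and 10.2 CPM and at 50.9, 52.3 and 44.2 CPM (log2 fold change 2.48, SE 0.23, adjusted p = 0.00131, edgeR), a rise of 8.13% of its GL261 level. Of genes with a high co-culture level relative to GL261, Zfas1 (0.81), Ndst1 (1.13) and Pcbp4 (1.31) were already at 13.3 CPM or more in monoculture. Hbegf, a growth factor, was at 4.20, 6.48 and 13.4 CPM in co-culture, in that order.

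**Figure D5:**
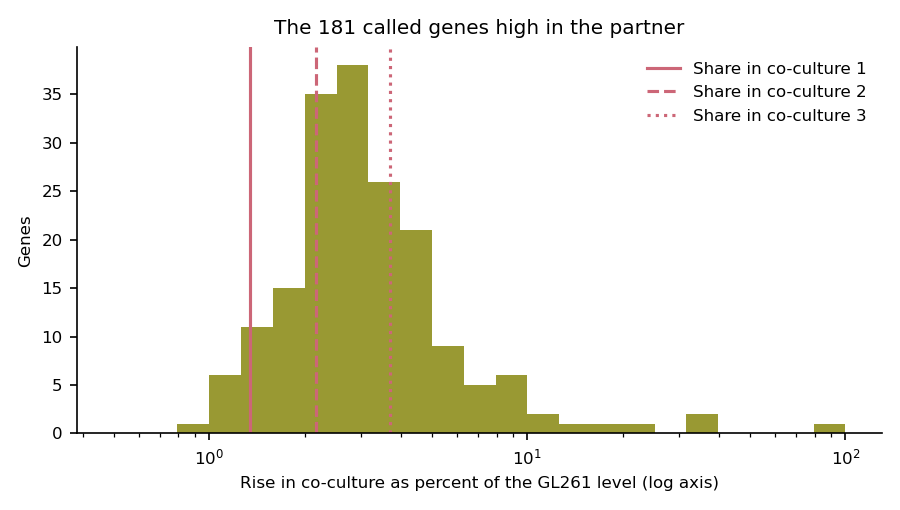
Histogram of the rise of the 181 called partner-high genes as percent of their GL261 monoculture level (log axis). Vertical lines mark the share of GL261-specific transcripts in co-culture libraries 1, 2 and 3 (1.34%, 2.16% and 3.71%). The median rise is 2.95%.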

How the data were processed

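The authors deposited raw counts per gene, which per the submitters' processing notes involved Trimmomatic 0.36, STAR 2.6, SAMtools and HTSeq 0.9.1 with genome build mm10. The annotation and strand setting are not given in the sources used here. Reads were 151 bases, paired, from a stranded kit, per the labels' protocols. All 10 macrophage libraries of the co-culture table were fitted with 1 mean per group in edgeR 4.0.16 (R 4.3.3). TMM factors were used, genes were kept at a minimum count of 10 and a total of 15 by its default filter, and p-values were adjusted over all 14806 tested genes at 0.05. The common biological coefficient of variation was 0.222. CPM are TMM-scaled for these libraries, except in the first paragraph on cell type markers and that on Y-linked genes, where they are plain. In the counts of rises and falls set against DMSO, CPM of these libraries are plain as well. They are also plain for GL261, BV2 and DMSO, whose levels come from other tables. GL261-specific genes had at least 20 CPM in GL261 and 100-fold over both macrophage monocultures with 0.5 CPM added. DESeq2 1.42.0, other scalings and filters, a replicate block, partner cuts and leaving out each library were alternatives. Loci and 75-base words come from GENCODE (GRCm38) and promoters from RefSeq (GRCm38.p6). A limit of 3 counts is used as the floor and covers counting error only.

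The genes, lists and tests were chosen with earlier results of these data known. Named genes were the 20 largest rises and 10 largest falls among called genes that are not partner-high, do not overlap between groups and have a mean log2 CPM of at least 1 and no predicted-gene name. To these were added called members and the 4 largest changes of each list, and 5 partner-high genes by level and 5 by ratio. Further genes are named where all called genes or a count of 5 or fewer is spelled out, which was done after their values were seen. Results for a few genes are not reported here.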

Additional observations from a re-analysis of the deposited data

Results flagged for a closer look

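Transcripts called GL261-specific, a name that rests on the macrophage monocultures alone, were also present in other macrophages that had no GL261 cells. In the normoxic DMSO libraries, which the comparison above does not use, the 190 GL261-specific genes stood at a median of 0.896% and 0.747% of their GL261 level. The monoculture libraries of the co-culture table held 0.0486% and 0.0400%. The quartiles in the DMSO libraries were wide, 0.0238% to 9.36% and 0.0683% to 7.83%, against 0.971% to 1.78% in normoxic co-culture library 1. In the DMSO libraries the upper quartile thus lay far above the lower one, while the co-culture values were similar across genes. Sparc, for example, was at 2680 and 2419 CPM in DMSO and at 21.7 and 23.9 CPM in monoculture.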

How the results depend on the processing

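No named gene that was called changed sign under an alternative. Among named genes that were not called, the sign differed from the main fit in 3 values. The number of calls moved widely. Against 62 called genes that are not partner-high, DESeq2 called 236 (165 higher, 71 lower), no filter beyond 1 count 484 (371 and 113), a mean CPM of at least 5 gave 25, the 2 groups alone 98, GL261 counts subtracted by share 19, and partner-high genes removed before adjustment 9. Leaving out 1 library gave 1 to 64. Against 181 partner-high genes, the counts were 398 with DESeq2, 578 without the filter, 45 at a mean CPM of at least 5, 7 after subtraction and 2 to 224 with 1 library left out. For the difference between oxygen levels, 0 became 9 with DESeq2, 128 without the filter and 0 to 1 with 1 library left out. With 1 monoculture library left, that library is assumed to vary like the other groups. With the replicate number as a block the counts were 149 and 283, holding 61 of the 62 genes, and 0 for the oxygen difference. Departures of same-numbered normoxic monoculture and co-culture libraries from their group means had correlations of 0.165 and 0.224. These are not correlations of expression levels, and the pairs are too few to settle whether the numbers pair them. Departures of same-numbered co-culture libraries of the 2 oxygen levels had 0.455, 0.244 and 0.407, each its highest. Taking out group means makes negative values among the other pairs likely. This is therefore at most a weak hint of a shared source, which the labels do not state. Why these counts differ was not tested, except that fewer genes or libraries were used where the setting says so. DESeq2 size factors, TMM from genes that are not partner-high, and other partner cuts kept the first 2 counts within 1.5 times. Library 3, the shallowest, limits low genes, with 3 counts at 0.303 CPM.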
